A study of Mus musculus with 6 samples.

Results

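Heat shock proteins, J-proteins and chaperonins are the folding machinery of the cell, and their transcripts were followed in EO771 cells, a mouse mammary tumour line, with and without recombinant lipocalin-2 (LCN2) protein. Members were taken by gene symbol, as every heat shock protein, J-protein, chaperonin and BAG gene, with Trap1, Hsf1 and Hsf2. This gave 84 of the 19832 genes of the table. They were sorted by the textbook location of their proteins into 51 cytosolic members, 14 of the endoplasmic reticulum (ER), 10 mitochondrial, 7 of other or mixed location and the 2 heat shock transcription factors. Total RNA was profiled by sequencing in 6 libraries, 3 from control cells and 3 from cells treated with LCN2. Both groups are the same line, and no dose or duration of the LCN2 treatment is stated in the sources used here. Whether the 3 libraries of a group came from different cultures is not given, and the p-values reflect library-to-library spread only, which may be technical. Values are FPKM (fragments scaled to transcript length and to library size), a unit inferred from the table, so that levels can be set side by side between genes. The read depth behind them is unknown.

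The libraries had 13299 to 13461 genes above 0 and 10251 to 10340 genes at 1 FPKM or more. Of 5 epithelial marker genes 4 were at 1 FPKM or more, and the sum of the 5 was 1222 to 1285 FPKM in control and 1181 to 1196 FPKM in LCN2 libraries, with Cdh1 at 0.209 FPKM or less. Within this list Krt18 rose and Krt8 and Krt19 fell, and the part of these markers in the results was not tested. The 4 mast cell markers in the table, Cpa3, Fcer1a, Mcpt4 and Tpsb2, were listed at 0 in every library. Of the fibroblast markers only Pdgfra was above 1 FPKM, at 3.44 to 4.64 FPKM. The summed level of the 2 leukocyte markers was at most 1.36 FPKM and that of the 3 endothelial markers at most 0.660 FPKM.

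HSP70 proteins bind exposed hydrophobic stretches of unfolded proteins and release them in a cycle of ATP hydrolysis. J-proteins deliver the substrate and start the hydrolysis, and HSP110 and BAG proteins exchange the nucleotide so that the cycle can begin again. HSP90 takes over late folding steps of kinases and receptors, and the closed-barrel chaperonins fold actin and tubulin in the cytosol (the TRiC complex) or imported proteins in mitochondria (Hspd1 with its lid Hspe1). Each compartment has its own HSP70, which is Hspa8 in the cytosol, Hspa5 (BiP) in the ER and Hspa9 (mortalin) in mitochondria. HSF1 drives the cytosolic set through heat shock elements, repeats of the pentamer nGAAn in alternating orientation, and the ER set answers to the unfolded protein response through the ER stress element.

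The promoters of a few members are shown because they carry these elements beside the start sites of genes that moved and genes that did not. RefSeq windows from 250 bases before to 50 bases after the start (GRCm38.p6) were found for 68 of the 84 members, 54 of them tested. The table held no window for Hspa13, Dnajc18, Bag4, Hspa8, Hsp90aa1, Hsp90ab1, Dnajc12, Dnajc2, Dnajc5, Cct4, Hspb2, Hsf1, Hspa9, Dnajc11, Dnajc30 and Dnajc22. Letters in capitals are the fixed letters of the match, and all sequences read 5′ to 3′ on the strand of the gene. The matches printed for Hspd1, Hspe1, Dnajb6, Dnaja1 and Hspa5 lie before a RefSeq start but at least partly within annotated exons. The RefSeq start used for Dnajb4 lies inside the annotated gene, away from its outer end. A heat shock element of 3 units was searched as GAANNTTC followed by NNGAA, on both strands (N is any base). It matched in 4 members, 5.88% of the 68, and in 0.662% of all 27025 genes with a window.
Hspd1, chr1:55088053-55088082, minus strand: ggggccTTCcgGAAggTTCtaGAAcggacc
Hspe1, chr1:55088053-55088082, plus strand: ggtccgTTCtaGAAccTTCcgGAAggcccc
Hsph1, chr5:149636279-149636308, minus strand: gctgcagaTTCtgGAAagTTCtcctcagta
Dnajb6, chr5:29735844-29735873, plus strand: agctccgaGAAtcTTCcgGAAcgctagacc

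Hspd1 and Hspe1 are neighbours read in opposite directions, and the element between them is the same run of DNA seen from each strand, with 2 overlapping matches. The Hsph1 match lies after its RefSeq start. In the test described below, Hspd1 and Hsph1 were called lower, and Hspe1 and Dnajb6 were not called. Dnajb6 had a log2 fold change of 0.10 (limma adjusted p = 0.14). Shorter elements of 2 units, searched as GAANNTTC and as TTCNNGAA, are each their own reverse complement and lie within every 3-unit match. GAANNTTC occurred in 13 of the 68 members (19.1%, against 9.04% of all genes) and TTCNNGAA in 8 (11.8%, against 9.60%). Of the 13 with GAANNTTC, 3 were called lower, 1 higher, 5 were not called and the rest were not tested. Of the 8 with TTCNNGAA, 3 were called lower, 0 higher and 5 were not called. Over all tested genes 9.87% were called lower and 11.6% higher, and a link between element and call was not tested. Dnajb1, which fell, had a window without a match. A pair of J-protein genes with lower transcript levels after LCN2 had these short forms only.
Dnaja1, chr4:40722333-40722362, plus strand: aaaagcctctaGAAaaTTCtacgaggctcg
Dnajb4, chr3:152193846-152193899, minus strand: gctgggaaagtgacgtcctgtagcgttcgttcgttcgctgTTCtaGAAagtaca

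The ER stress element was searched on both strands by its standard form, CCAAT and CCACG separated by 9 bases. It matched in 3 members (4.41%, against 0.137% of all genes), Hspa5, Hsp90b1 and Dnajc3, all of the ER. The Hsp90b1 window held 2 matches, the second on the opposite strand.
Hspa5, chr2:34772020-34772049, plus strand: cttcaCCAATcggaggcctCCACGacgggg
Hsp90b1, chr10:86705510-86705694, minus strand: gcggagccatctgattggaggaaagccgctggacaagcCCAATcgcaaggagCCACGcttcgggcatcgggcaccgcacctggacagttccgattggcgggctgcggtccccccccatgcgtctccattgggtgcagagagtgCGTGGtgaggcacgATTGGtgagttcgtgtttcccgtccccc
Dnajc3, chr14:118937787-118937885, plus strand: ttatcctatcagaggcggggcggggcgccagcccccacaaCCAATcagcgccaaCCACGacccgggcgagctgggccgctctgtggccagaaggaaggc

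With LCN2, 15 members fell and 6 rose among the 70 that could be tested. The largest falls were in the cytosolic HSP70 Hspa8, the J-proteins Dnaja1, Dnajb1 and Dnajb4, and Hsph1, 1 of 3 HSP110 genes. The HSP70 genes of the ER and of mitochondria, Hspa5 and Hspa9, rose. A gene was tested if its mean over the 6 libraries was at least 1 FPKM, and called if its adjusted p was under 0.05 in limma over all 10309 tested genes. Calls made up 30% of tested members and 21.4% of all tested genes. Falls made up 21.4% of members against 9.87% of all genes, and rises 8.57% against 11.6%. The median log2 fold change of the members was -0.03 and that of all tested genes -0.0013. With the values as deposited and not scaled between libraries, 18 members fell and 3 rose, and over all genes the share of falls among calls went from 46.0% to 70.8%. After scaling, the groups did not overlap in 23 members that were lower and 16 that were higher, together 55.7% of those tested, against 44.5% of all genes.

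The calls depended on which libraries were used. When 1 of the control replicates 1 and 3 or of the LCN2 replicates 1 and 3 was left out, limma called 0 members lower, and 2.1%, 1.57%, 0.864% and 1.78% of all tested genes. In the same 4 fits 17, 16, 15 and 16 members, in that order, were lower at an unadjusted p under 0.05. These were 21.4% to 24.3% of the tested members, against 14.4%, 14.8%, 13.7% and 13.8% of all tested genes. Called higher were 1, 1, 0 and 1 members, against 3.94%, 2.89%, 1.69% and 2.85% of all tested genes. Regardless of the call, 10, 8, 8 and 7 members were higher at an unadjusted p under 0.05, which is 10% to 14.3% of members against 16.6%, 16.2%, 15% and 14.9% of all tested genes. Without LCN2 replicate 2 the calls were 19 falls and 9 rises, while 14.8% of all tested genes were called lower and 15.8% higher. Of the 15 members that fell, LCN2 replicate 2 was the LCN2 library nearest the control mean in 14 (93.3%), and it was so in 85.6% of all genes that fell. Of the 6 that rose it was nearest in 5 (83.3%), against 77.9% of all genes that rose. Hsp90aa1, Dnaja2, Dnajc14, Dnajc11, Tcp1, Cct4 and Hsf1 also lost their calls without control replicate 2, and Dnajc24 without LCN2 replicate 2. The single called member not lost in most of these fits was Hspa9, which lost its call only without LCN2 replicate 1.

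**Figure D1:**
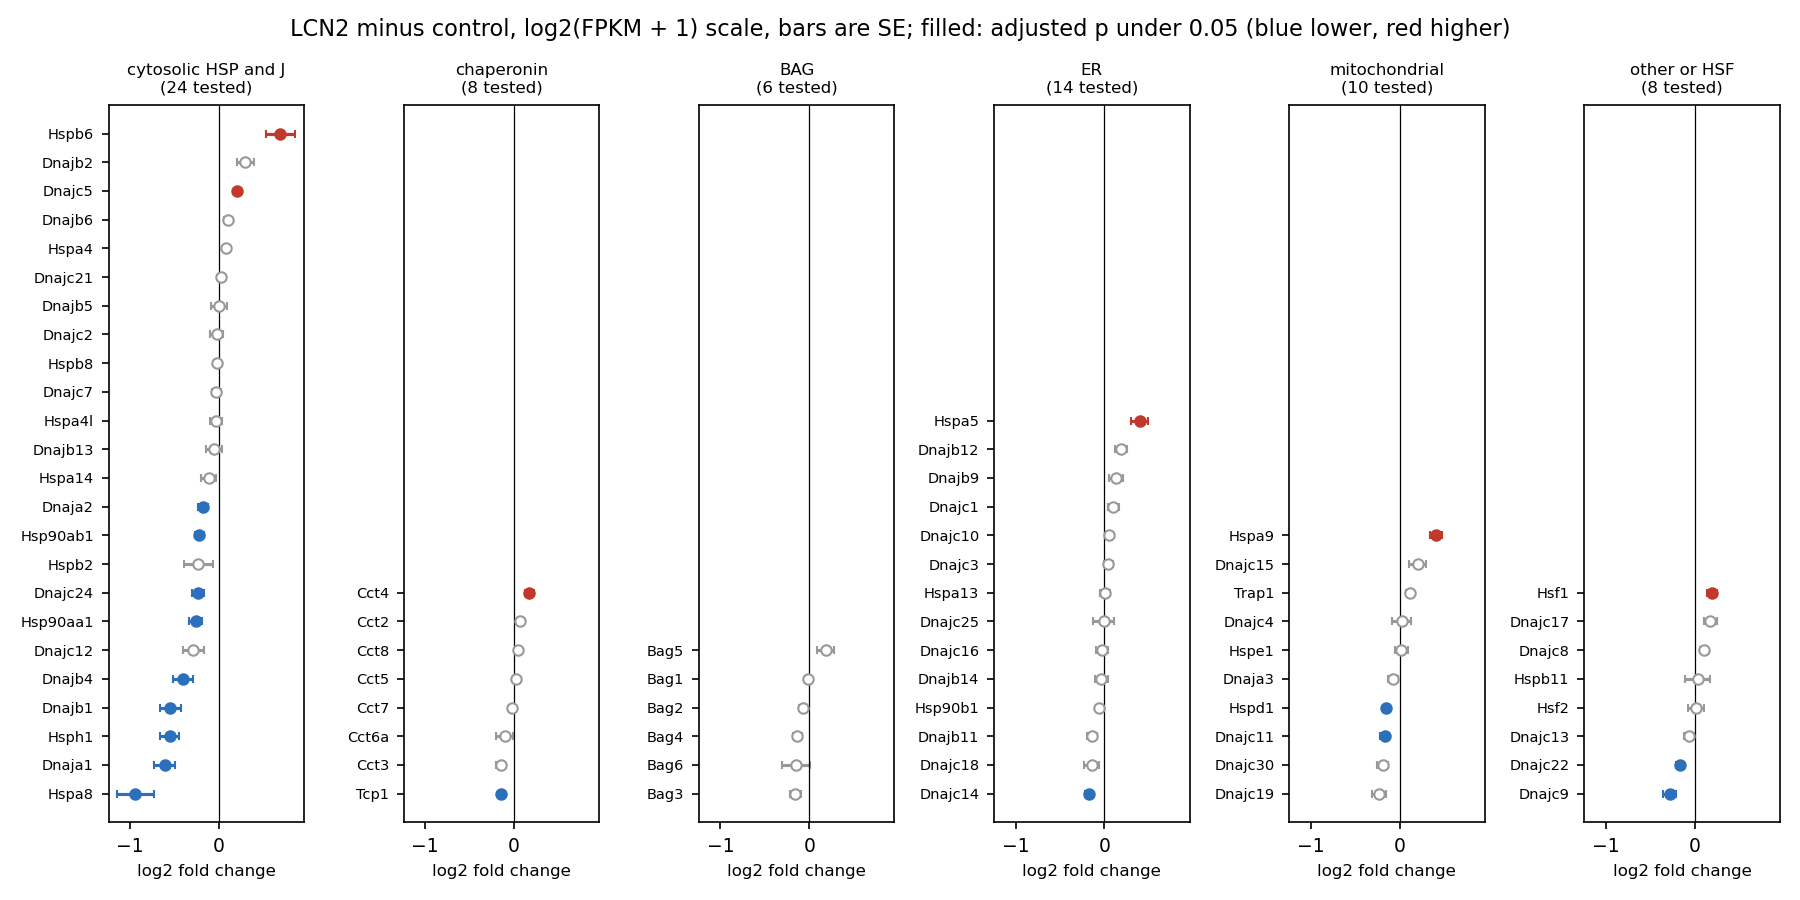
Log2 fold change (LCN2 over control, from log2 of FPKM + 1) of the 70 tested members by compartment, with bars for the standard error and filled points for adjusted p under 0.05 (blue lower, red higher). The falls of more than 0.4 are all in the cytosolic panel, and Hspa5 and Hspa9 stand at the top of the ER and mitochondrial panels.

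Hspa8, the constitutive cytosolic HSP70 (chromosome 9, 40800984 to 40810087, GRCm38), had 920, 766 and 834 FPKM in control replicates 1 to 3 and 354, 603 and 342 FPKM in LCN2 replicates 1 to 3. The groups did not overlap, and LCN2 replicate 2 lay between the other LCN2 libraries and the controls. The mean fell to 51.5% of the control mean, from 840 ± 77.5 (SD, n = 3) to 433 ± 148 FPKM, a log2 fold change of -0.94 (SE 0.20, limma adjusted p = 0.021). Its coefficient of variation among the LCN2 libraries, 34.1%, was the highest of the 70 tested members. Hspa8 was called without either control replicate 2 or LCN2 replicate 2, and its adjusted p reached 0.081 in the other fits that left out 1 library. In a bulk library, less RNA per cell and fewer cells carrying it cannot be told apart. Annotated exons of Hspa8 overlap 3 small nucleolar RNAs, Snord14c, Snord14d and Snord14e.

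Hspa5 of the ER and Hspa9 of mitochondria rose. Hspa5 (chromosome 2, 34771970 to 34777547), the ER stress sensor's partner, had 189, 230 and 227 FPKM in controls and 270, 245 and 301 FPKM with LCN2. Every LCN2 library was above every control, with LCN2 replicate 2 lowest of the treated. The log2 fold change was 0.40 (SE 0.09, limma adjusted p = 0.027). Leaving out any of control replicates 1 and 3 and LCN2 replicates 1 and 3 ended the call, at adjusted p-values reaching 0.089. Hspa9 (chromosome 18, 34937414 to 34954357), the import motor of mitochondria, had 253, 280 and 255 FPKM in controls and 339, 303 and 361 FPKM with LCN2. Its groups did not overlap either, and the log2 fold change was 0.41 (SE 0.07, limma adjusted p = 0.011, and 0.056 without LCN2 replicate 1). An annotated pseudogene, Hspa9-ps1, bears its name.

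**Figure D2:**
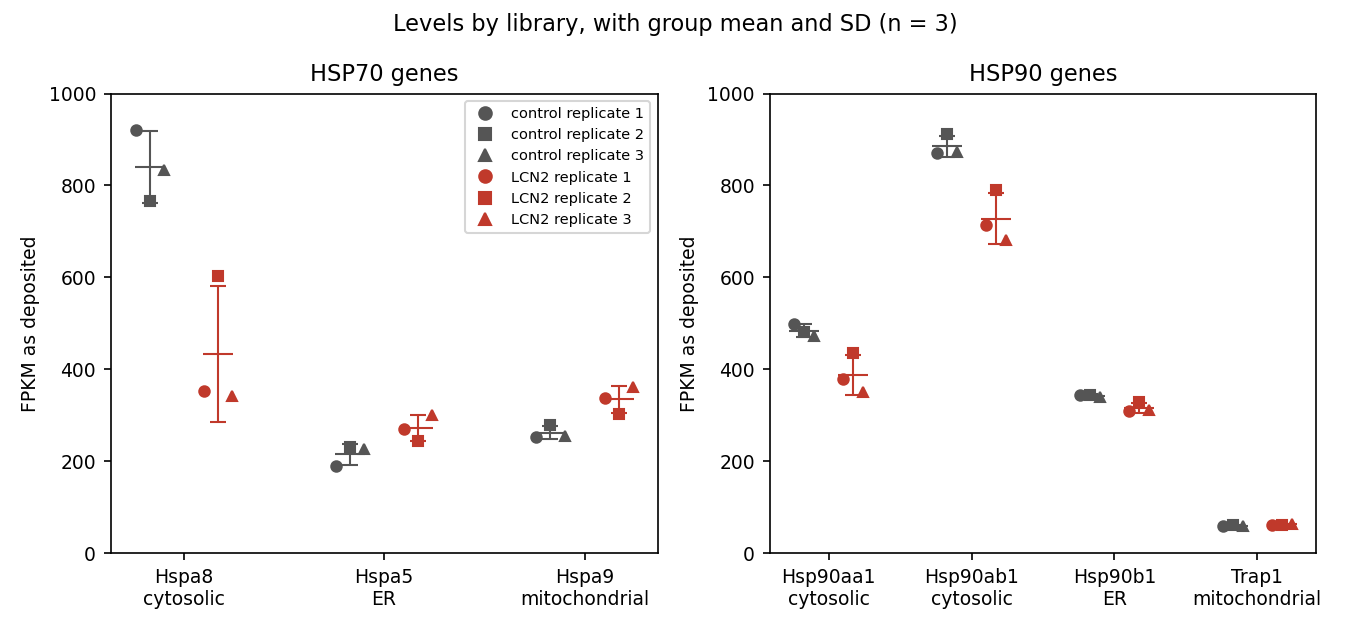
FPKM as deposited in each library for the HSP70 genes (left) and HSP90 genes (right) of the cytosol, ER and mitochondria, with the group mean and SD (n = 3). Hspa8 is at 766 to 920 FPKM in controls and 342 to 603 with LCN2, while Hspa5 and Hspa9 shift upwards by far less.

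Ratios between the main HSP70 genes were also compared within each library. The log2 ratio of Hspa5 to Hspa8 was -2.28, -1.73 and -1.87 in controls and -0.39, -1.30 and -0.18 with LCN2, so that the groups did not overlap. The difference was 1.34 on the log2 scale (exact permutation test over the 6 libraries, two-sided p = 0.1, the smallest that 3 against 3 allows). The log2 ratio of Hspa9 to Hspa8 was -1.86, -1.45 and -1.71 in controls and -0.06, -0.99 and 0.08 with LCN2, a difference of 1.35 (exact permutation p = 0.1). Hspa9 was thus level with Hspa8 in LCN2 replicates 1 and 3. For Hspa5 to Hspa9 the groups overlapped, at -0.42 to -0.17 in controls and -0.33 to -0.26 with LCN2, a difference of -0.01 (exact permutation p = 0.9). The 3 ratios share genes, and no p was below 0.05, nor could it be in this design.

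Of the summed FPKM of the 5 tested HSP70 genes (Hspa8, Hspa5, Hspa9, Hspa13 and Hspa14), Hspa8 held 65.6%, 58.1% and 61.4% in controls and 35.4%, 50.6% and 32.9% with LCN2. Hspa13 in the ER (adjusted p = 0.95) and the ribosome-associated Hspa14 (log2 fold change -0.11, adjusted p = 0.34) were not called. All cytosolic members together summed to 5260 to 5322 FPKM in controls and 4200 to 4777 FPKM with LCN2. The ER members summed to 744 to 796 FPKM and 774 to 807 FPKM, and the mitochondrial members to 1169 to 1203 FPKM and 1162 to 1182 FPKM. The cytosolic sums thus did not overlap between the groups, and the other sums did. Such sums weigh the most abundant genes, Hspa8, Hsp90ab1 and Hsp90aa1 among them. Of the 38 tested cytosolic members 10 fell (26.3%, against 9.87% of all tested genes) and 3 rose (7.89%, against 11.6%). The other 25 were not called, and the median log2 fold change was -0.06.

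**Figure D3:**
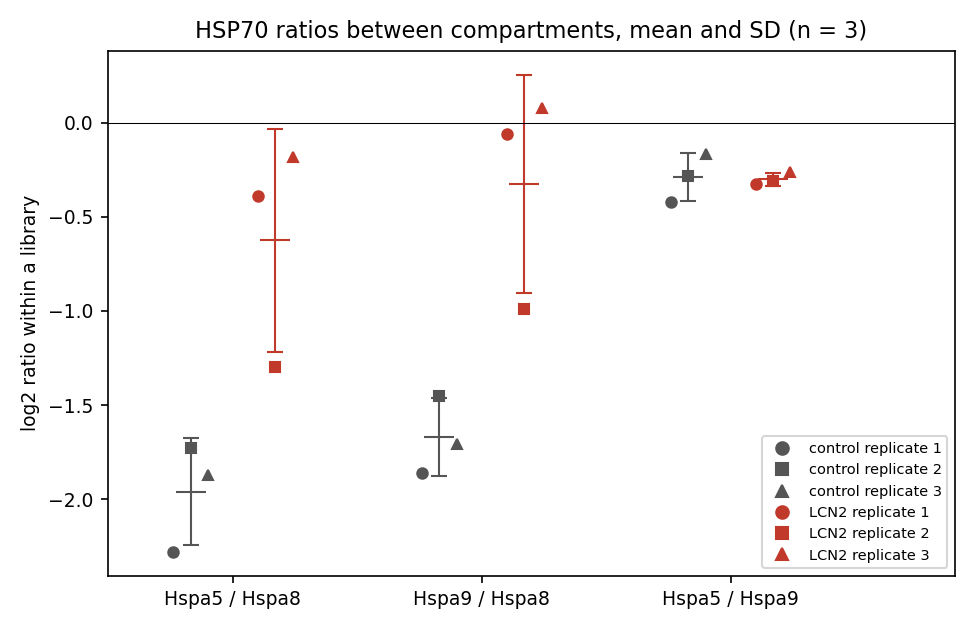
Log2 ratio of FPKM between HSP70 genes within each library, for Hspa5 to Hspa8, Hspa9 to Hspa8 and Hspa5 to Hspa9, with the group mean and SD (n = 3). The first 2 ratios are higher in all LCN2 libraries than in all controls, and the third overlaps between groups.

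Among the 24 tested cytosolic heat shock proteins and J-proteins (chaperonins and BAG genes apart), 9 fell and 2 rose. The share of falls was 37.5%, against 9.87% of all tested genes, and the median log2 fold change was -0.09. The members that fell were Hspa8, 5 J-proteins, Hsph1 alone of the 3 HSP110 genes, and both cytosolic HSP90 genes.

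Among the J-proteins that deliver substrate to Hspa8, falls were called in Dnaja1, Dnajb1 and Dnajb4. Dnaja1, the main cytosolic class A J-protein (chromosome 4, 40722150 to 40737149), had 122, 111 and 112 FPKM in controls and 67.5, 87.9 and 62.0 FPKM with LCN2. Its groups did not overlap, and the log2 fold change was -0.61 (SE 0.12, limma adjusted p = 0.016). Exons of Dnaja1 overlap those of Smu1, Gm6297 and Mir207, and an annotated pseudogene, Dnaja1-ps, bears its name. Dnajb1, the stress-inducible Hsp40 (chromosome 8, 83608193 to 83612653), had 19.3, 15.7 and 18.1 FPKM in controls and 11.0, 13.1 and 9.78 FPKM with LCN2, with a log2 fold change of -0.55 (limma adjusted p = 0.021). Its relative Dnajb4 had 23.1, 19.1 and 19.1 FPKM and then 13.3, 17.0 and 13.4 FPKM, a log2 fold change of -0.40 (limma adjusted p = 0.043). In these 3 genes as in Hspa8, LCN2 replicate 2 was the highest treated library and still below every control.

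Smaller falls were called in Dnaja2, a class A J-protein of protein disaggregation (-0.18, limma adjusted p = 0.047), and in Dnajc24, which serves the diphthamide pathway (-0.24, adjusted p = 0.043). Dnajc24 was the only called J-protein that fell for which LCN2 replicate 3, and not replicate 2, was nearest the control mean. Dnajc5, the cysteine string protein of secretory vesicles, rose from 40.7 ± 1.68 to 45.0 ± 0.443 FPKM (0.20, adjusted p = 0.015), a call lost with values as deposited. In all, 5 of 14 tested cytosolic J-proteins fell (35.7%, against 9.87% of all tested genes) and 1 rose (7.14%, against 11.6%). Those without a call ranged from -0.29 for Dnajc12, which had the lowest level but one of the tested members, to 0.30 for Dnajb2 (adjusted p = 0.058).

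Hsph1, the inducible HSP110 that exchanges nucleotide on HSP70 (chromosome 5, 149614287 to 149636376), had 79.1, 76.9 and 74.4 FPKM in controls and 45.6, 60.5 and 44.6 FPKM with LCN2. The groups did not overlap, and the fall was -0.55 on the log2 scale (SE 0.10, limma adjusted p = 0.015). Its relatives Hspa4 (0.08, adjusted p = 0.12) and Hspa4l (-0.03, adjusted p = 0.72) were not called. Limma called 0 of the 6 BAG genes, whose products release substrate from HSP70 or shield it, and 2 were lower at an unadjusted p under 0.05 (19.1% of all tested genes were). Bag3, the stress-inducible one, had 27.2 ± 1.34 FPKM in controls and 23.3 ± 2.04 FPKM with LCN2 (-0.16, adjusted p = 0.096). Bag1, the most abundant, had 181 ± 5.88 and 173 ± 5.08 FPKM (adjusted p = 0.87).

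Both cytosolic HSP90 genes fell by less than Hspa8. Hsp90ab1, the constitutive form and the member with the highest level in each group, had 871, 912 and 872 FPKM in controls and 713, 790 and 681 FPKM with LCN2. Its log2 fold change was -0.22 (SE 0.05, limma adjusted p = 0.023). Hsp90aa1, the inducible form, had 499, 481 and 472 FPKM in controls and 378, 435 and 350 FPKM with LCN2 (-0.26, limma adjusted p = 0.042). Neither gene's groups overlapped. Hsp90b1 (GRP94) of the ER had 343 ± 3.02 and 316 ± 11.0 FPKM (-0.06, adjusted p = 0.30), and mitochondrial Trap1 had 60.2 ± 1.06 and 62.5 ± 1.74 FPKM (0.11, adjusted p = 0.088). These last 2 were not called.

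By group mean, the members ranked Hsp90ab1, Hspa8, Hspd1, Hsp90aa1 and Cct5 in controls, and with LCN2 they ranked Hsp90ab1, Hspd1, Hspa8, Cct5 and Hsp90aa1. In the LCN2 group the ranges of Hspa8 (342 to 603 FPKM), Hspd1 (427 to 466), Cct5 (420 to 445) and Hsp90aa1 (350 to 435) overlapped, so their order there is not beyond the spread of the libraries. Hsp90ab1 was above Hspa8 in all LCN2 libraries, and overlapped with it in controls.

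**Figure D4:**
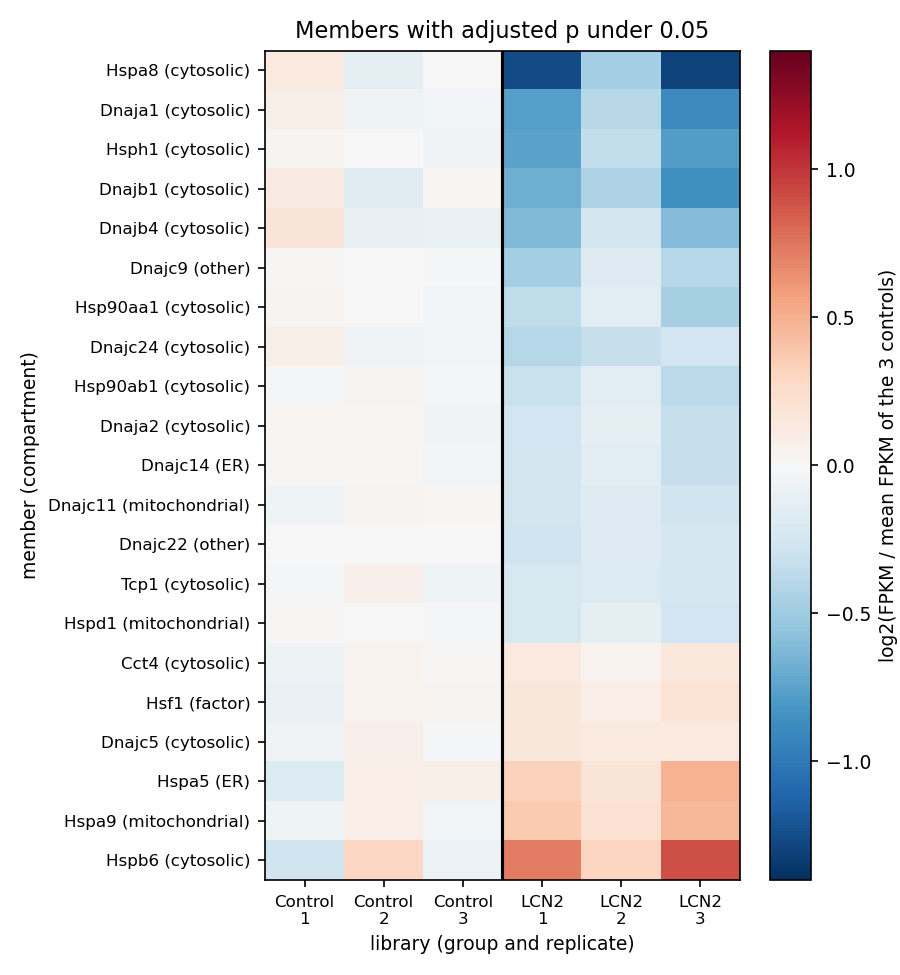
Log2 of each library's FPKM over the mean of the 3 controls for the 21 called members, ordered by fold change, with blue for lower and red for higher. In most rows the column of LCN2 replicate 2 is paler than those of LCN2 replicates 1 and 3.

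Small heat shock proteins hold unfolded proteins without using ATP. Of the 3 tested in the cytosol 1 rose (33.3%, against 11.6% of all tested genes) and 0 fell (against 9.87%). Hspb6 (HSP20) had 14.3, 21.2 and 16.4 FPKM in controls and 28.4, 21.4 and 32.5 FPKM with LCN2. The groups did not overlap, but LCN2 replicate 2 was close to control replicate 2. The log2 fold change of 0.69 (SE 0.17, limma adjusted p = 0.028) was the largest rise among the members. Hspb8, the partner of Bag3, was the most abundant of this family at 126 ± 5.76 and 119 ± 2.15 FPKM and was not called (-0.03, adjusted p = 0.58), nor was Hspb2 (-0.23, adjusted p = 0.32). Exons of Hspb6 overlap those of Lin37 and Proser3, and the table cannot separate such reads.

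Hspa1a and Hspb1, stress-inducible forms well known from heat shock, were nearly silent. Hspa1a was at 0.0085, 0.0069 and 0 FPKM in controls and 0.013, 0.016 and 0 FPKM with LCN2, and Hspb1 (HSP27) at 0.43, 0.43 and 0.046 FPKM and then 0.067, 0.070 and 0.082 FPKM. Neither reached the level for testing. No gene named Hspa1b was among the 84 members taken by symbol, so its level is not known here. Reads from the near-identical Hspa1a and Hspa1b could have been split or dropped in counting. Of the 14 members below the filter, Dnajb3, Dnajb8, Dnajc5g and Hspb7 were listed at 0 in every library, and the others were Cct6b, Dnajb7, Dnajc6, Dnajc28, Hspa12b, Hspa1l, Hspa2 and Hspb3. Nearest below the filter were Hspa2, at 1.07 ± 0.310 FPKM in controls and 0.458 ± 0.169 FPKM with LCN2, and Dnajc28 with a mean of 0.560 FPKM over all libraries. Nearest above it were Dnajb5 with a mean of 1.27 FPKM and Dnajc12 with 1.31 FPKM.

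Hsf1, the transcription factor of the heat shock response (chromosome 15, 76477422 to 76501913), had 19.2, 21.2 and 21.1 FPKM in controls and 22.9, 21.8 and 23.4 FPKM with LCN2. The groups did not overlap, and it rose by 0.20 on the log2 scale (SE 0.05, limma adjusted p = 0.040). The call was lost with values as deposited and when scaled to column sums, and no activity of the protein is measured by these values. Hsf2 had 11.6 ± 0.911 and 11.3 ± 1.57 FPKM and was not called (adjusted p = 0.93).

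Of the 14 ER members, 1 rose and 1 fell, 14.3% called against 21.4% of all genes. Besides Hspa5, the call was for Dnajc14, a J-protein of the ER membrane, which fell from 52.5 ± 1.15 to 44.6 ± 2.73 FPKM (-0.17, limma adjusted p = 0.045). Its exons overlap those of Ormdl2, Sarnp and Tmem198b. The J-proteins that work with Hspa5 in the lumen were not called, with Dnajb11 at -0.14 (adjusted p = 0.11), Dnajb9 at 0.13 (adjusted p = 0.27), Dnajc3 at 0.04 (adjusted p = 0.55) and Dnajc10 at 0.06 (adjusted p = 0.31). The log2 fold changes of Dnajc3 and Dnajc10 were below 0 with values as deposited. Of the 3 members with the ER stress element printed above, Hspa5 rose, and Hsp90b1 and Dnajc3 were not called.

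Of the 10 mitochondrial members, 1 rose (10%, against 11.6% of all tested genes) and 2 fell (20%, against 9.87%). Hspd1, the barrel of the mitochondrial chaperonin (chromosome 1, 55077835 to 55088243), had 518, 513 and 508 FPKM in controls and 438, 466 and 427 FPKM with LCN2, a log2 fold change of -0.15 (SE 0.04, limma adjusted p = 0.044). Hspe1, its lid and the neighbour on the shared promoter shown above, had 269, 231 and 252 FPKM in controls and 237, 252 and 241 FPKM with LCN2. The groups overlapped for Hspe1 and it was not called (0.02, adjusted p = 0.85; below 0 with values as deposited, scaled to column sums or after quantile normalization). Exons of Hspd1 and Hspe1 overlap, and 11 annotated pseudogenes bear their names, so their reads may be divided in a way the table does not show. The other call was the J-protein Dnajc11, which fell from 20.7 ± 0.785 to 17.6 ± 0.631 FPKM (-0.17, adjusted p = 0.043). The import J-protein Dnajc19 (-0.23, adjusted p = 0.069) and Dnaja3, the partner of Hspa9 (-0.07, adjusted p = 0.40), were not called. Hspa9 thus rose without a called rise in any of the 6 mitochondrial J-proteins tested among the members. Of these, 0 were higher and 3 lower at an unadjusted p under 0.05 (19.1% of all tested genes were lower and 20% higher at that level). The 6 mitochondrial genes of the co-chaperone list below, Hscb, Dnlz, Grpel1, Grpel2, Clpb and Clpx, had a median log2 fold change of 0.096. At that unadjusted level 2 of them were higher and 1 lower. Limma called 0 of them higher and 1, Grpel2, lower (16.7%, against 9.87% of all tested genes).

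Of the 8 tested subunits of the cytosolic chaperonin TRiC, 1 fell and 1 rose. That is 12.5% each, near the 9.87% and 11.6% of all tested genes, and the log2 fold changes lay between -0.15 and 0.17. Tcp1 fell from 148 ± 6.97 to 127 ± 2.32 FPKM (-0.15, SE 0.03, limma adjusted p = 0.023), and Cct4 went from 181 ± 7.52 to 196 ± 7.52 FPKM (0.17, SE 0.05, adjusted p = 0.035). The call of Cct4 was lost with values as deposited, scaled to column sums and after quantile normalization. Cct3 was at -0.15 (adjusted p = 0.074), and Cct2, Cct5, Cct6a, Cct7 and Cct8 lay between -0.11 and 0.07 without a call. On the per-length FPKM scale, control means spanned 148 FPKM for Tcp1 to 447 FPKM for Cct5. Exons of Tcp1 overlap those of Mrpl18 and Acat3, and an annotated pseudogene, Tcp1-ps1, bears its name.

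Of the 6 tested members of other or mixed location, 2 J-proteins fell (33.3%, against 9.87% of all tested genes) and 0 members rose (against 11.6%). At an unadjusted p under 0.05, 2 were lower and 2 higher, against 19.1% and 20% of all tested genes. Dnajc9, a histone-binding J-protein of the nucleus (chromosome 14, 20384638 to 20388910), had 56.4, 55.9 and 54.5 FPKM in controls and 40.1, 49.1 and 42.1 FPKM with LCN2 (-0.28, limma adjusted p = 0.032). Dnajc22, a membrane J-protein, went from 37.6 ± 0.240 to 32.0 ± 1.08 FPKM (-0.17, adjusted p = 0.042). Hspb11, a ciliary transport protein despite its name, was not called (adjusted p = 0.87).

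Co-chaperones and further HSF1-linked genes were taken as a list of 45, all of them tested, of which 4 fell and 3 rose. Calls made up 15.6% of the list against 21.4% of all genes. This order turned with other scalings, to 26.7% against 23.0% with values as deposited, where 10 of the list fell, 24.4% against 21.9% by column sums and 24.4% against 22.1% after quantile normalization. In the main fit limma called 0 of the 16 HSP90 co-chaperones. In that fit 4 were lower and 1 higher at an unadjusted p under 0.05, against 19.1% and 20% of all tested genes. Ahsa1, Fkbp8 and Stip1 among them were called lower with values as deposited, by column sums and after quantile normalization. The highest rise was in Sqstm1, the autophagy receptor p62, from 162 ± 17.6 to 290 ± 47.4 FPKM (0.89, limma adjusted p = 0.0070). Zfand2a, a heat-inducible partner of the proteasome, rose by 0.34 (adjusted p = 0.026) and the prefoldin subunit Pfdn2 by 0.20 (adjusted p = 0.037, and 0.076 with values as deposited). Falls were called in Vbp1, another prefoldin subunit (-0.38, adjusted p = 0.012), St13, the HSP70-interacting protein HIP (-0.22, adjusted p = 0.034), and Grpel2, a nucleotide exchange factor of mitochondrial HSP70 (-0.22, adjusted p = 0.016). Sqstm1 was called in every fit that left out 1 library. Vbp1 lost its call in 3 of these fits (control replicate 3 or LCN2 replicates 1 and 3 left out), and Zfand2a, Pfdn2, St13 and Grpel2 lost theirs in at least 4 of the 6. The related exchange factor Grpel1 was at 0.13 (adjusted p = 0.071).

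The genes outside these lists whose levels followed Hspa8 most closely over the 6 libraries were R3hdm4, BC005537, Ephb4, Dck and Lmnb1, by Pearson correlation of scaled log2(FPKM + 1). Their r lay between 0.998 and 0.999. These values describe 6 libraries in 2 groups that differ in Hspa8, so any gene with the same division and the same middle place for LCN2 replicate 2 scores high.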

How the data were processed

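The authors deposited 1 table of values per gene and library, named as raw counts. Of the values above 0, 0% were whole (tolerance 1e-09), columns summed to 391569 to 410808, and values times the longest annotated transcript in kilobases summed to 1032630 to 1095180, so the deposited values were treated as FPKM, an inferred unit. The genome build is GRCm38, per the submitters' processing notes; the aligner and quantifier were not given there. Among 396 to 428 low genes with a single transcript, at most 4 shared a ratio between libraries, so whole reads were not recovered.

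Values were scaled by unweighted TMM (trimmed mean of M-values, trims 0.3 and 0.05), and log2(FPKM + 1) was fitted with limma 3.58.1 (R 4.3.3, variance trend, no replicate term) for genes averaging 1 FPKM or more, with Benjamini-Hochberg adjustment over all of them, two-sided. The fit was tested on simulated data. Fold changes on this scale understate those of low genes. Means and SDs use the deposited values before scaling. Exact permutation tests used scipy 1.17.1. Coordinates, exon overlaps and pseudogene names are from GENCODE M21.

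The members, lists and tests were chosen with earlier results of these data known. Named genes are all called members, the principal chaperones of each compartment, the 2 most abundant members of families without a call, the 2 members on each side of the filter and up to 4 called co-chaperones in each direction; other members named with values were chosen after their values were seen. Exon overlap was checked for members only. The values of 1 called gene of the co-chaperone list are not reported here.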

Additional observations from a re-analysis of the deposited data

How the results depend on the processing

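The labels state no pairing of the libraries. The correlation of deviations from the group mean was -0.22, -0.26 and 0.01 for same-numbered libraries. Deviations within a group of 3 cancel out, so these correlations cannot settle whether libraries were paired. With a replicate block 267 genes were called in place of 2209, 0 of them members and 1 in the co-chaperone list (higher, 0 lower). Without a filter on low values 1464 genes were called, with 4 members lower and 2 higher (cytosolic heat shock and J-proteins 3 and 1, ER 0 and 0, mitochondrial 0 lower, chaperonin 0 higher), and the co-chaperone list gave 2 lower and 1 higher. With values as deposited 3 members rose, with 1 cytosolic heat shock or J-protein higher, 4 mitochondrial members and 2 chaperonin subunits lower and 0 chaperonin subunits higher, and 10 co-chaperones fell. Scaled to column sums, or after quantile normalization, 0 chaperonin subunits rose and 8 co-chaperones fell, and quantile normalization gave 2 chaperonin falls. A pseudocount of 0.1 and median-ratio scaling kept the counts of members at 15 and 6.

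Leaving out each library in turn gave 263 to 3155 calls, 0 to 19 member falls and 0 to 9 member rises. The ranges were 0 to 9 falls and 0 to 3 rises for cytosolic heat shock and J-proteins, 0 to 2 and 0 to 2 for ER members, 0 to 3 and 0 to 2 for mitochondrial members, 0 to 2 and 0 to 1 for chaperonin subunits, and 0 to 11 and 1 to 3 for co-chaperones. The ratio of Hspa5 to Hspa9 turned sign, over a range of -0.076 to 0.050. Genes that were not called turned sign near 0: Dnajb5 (-0.033 as deposited, -0.014 by column sums, -0.00028 by median ratio), Hsf2 (-0.045 and -0.013), Hspb11 (-0.020) and Hspe1 (-0.040, -0.0054 and -0.028 after quantile normalization). With 1 library left out the log2 fold change ran from -0.023 to 0.011 for Bag1, -0.052 to 0.035 for Dnajb5, -0.082 to 0.078 for Hsf2, -0.13 to 0.14 for Hspb11 and -0.061 to 0.088 for Hspe1. Depth is unknown, so no counting error could be given.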

Other observations

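In a few members and co-chaperones 1 library stood away from the other 5. The chaperonin subunit Cct6a was at 317 FPKM in control replicate 3 and at 237 to 254 FPKM in the other libraries. Bag6, which guides tail-anchored proteins to the ER, was at 8.82 FPKM in LCN2 replicate 2 and at 12.9 to 14.8 FPKM elsewhere. The prefoldin subunit Pfdn6 was at 28.9 FPKM in LCN2 replicate 3 and at 13.0 to 15.0 FPKM elsewhere. They were picked on sight of these values, and no cause was tested.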
